A study of Mus musculus with 6 samples.

Results

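The 41 genes described here encode parts of the lysosome and of autophagy. They were taken by gene symbol from a list of 6 classes, namely the MiT/TFE transcription factors, cathepsins, other hydrolases with their activators, membrane proteins, subunits of the proton pump and autophagy proteins. All 41 were found among the 54331 genes of the deposited table. The cells were male mouse embryonic fibroblasts (MEFs) from E13.5 embryos that had been pooled, on a mixed C57BL/6, DBA/2 and ICR background. They carried an *Oct4-EGFP* transgene, in which the *Oct4* promoter and enhancer drive a green fluorescent protein. All wells received retroviruses for Oct4, Sox2, Klf4 and AKT-MER (OSKA), a myristoylated AKT fused to a modified estrogen receptor that 4-hydroxytamoxifen (4OHT) switches on. From 3 days postinfection (dpi), 3 wells were given 1 µM 4OHT (OSKA + 4OHT, AKT activated) and 3 wells its vehicle, ethanol (OSKA − 4OHT, AKT not activated), and RNA was taken at 10 dpi. The wells were replated from transduced cells at 3 dpi, so that p-values measure the spread between wells. In RNA from whole wells, fewer cells of a type and less RNA per cell cannot be told apart. The comparison asks whether AKT activation during reprogramming goes with another level of lysosome and autophagy transcripts.

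Lysosomes are acidic organelles in which hydrolases break down proteins, lipids, glycans and nucleic acids, and autophagy delivers cytoplasm and organelles to them. The V-ATPase pumps protons into the lumen, and heavily glycosylated membrane proteins line the membrane. TFEB, TFE3 and MITF bind E-boxes, in particular the CLEAR element, near many lysosome and autophagy genes. AKT and mTORC1 are known to phosphorylate TFEB and to keep it in the cytoplasm. RNA levels do not show this phosphorylation or the location of the protein.

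Values are in TPM, a measure of transcript abundance that corrects for transcript length and sums to 1000000 in each well, so it keeps no depth. The test was limma-trend, applied to log2(TPM + 0.5) for the 15382 genes that averaged 1 TPM or more, and "rose" and "fell" are used for genes with a Benjamini-Hochberg adjusted p-value under 0.05. Fold changes are on that scale, OSKA + 4OHT over OSKA − 4OHT. The wells listed 15814 to 17692 genes above 0 without 4OHT and 17578 to 18230 with it, and mitochondrial genes took 13.9% to 20.8% of the TPM. *Akt1*, whose value may include reads of the AKT-MER transgene, was between 653 and 751 TPM in the OSKA − 4OHT wells and between 448 and 642 TPM in the OSKA + 4OHT wells (adjusted p = 0.286 by limma-trend). Of the labelled cell type, the 8 fibroblast markers summed to between 6393 and 8209 TPM in the OSKA − 4OHT wells and between 4829 and 6215 TPM in the OSKA + 4OHT wells. These sums were led by *Vim*, which averaged 3844 TPM without 4OHT and 2668 TPM with it. Of these 8, 2 fell (*Col1a2* and *Pdgfrb*) and 1 rose (*Col3a1*). The wells of the groups did not overlap for 3 that were higher with 4OHT (*Col3a1*, *Thy1* and *Dcn*) and 4 that were lower. Among all tested genes these shares were 18.1% and 10.0%. Of the 5 epithelial markers 3 rose, and of the 6 pluripotency markers 4 rose. The part of such differences in the values below was not tested.

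Promoter windows show which members carry the letters that MiT/TFE factors bind. Windows of 300 bases (250 before and 50 after each gene's start) came from RefSeq on GRCm38.p6, and 35 of the 41 members had one. The E-box core CACGTG and its longer form TCACGTGA, which holds the core, were searched. Both equal their own reverse complement, so a match counts for both strands. CACGTG was in the windows of 13 members (37.1%), against 11.4% of 10551 tested genes and 8.09% of all 27025 genes with a window. TCACGTGA was in those of 6 members (17.1%), against 2.15% of the tested genes and 1.12% of all genes. The full 10-base CLEAR palindrome, which extends TCACGTGA by 1 base on each side, was also searched and was in 0 of the 35 member windows, against 0.777% of the tested genes and 0.37% of all genes. The median GC content of the windows was 57.5% for members and 60.3% for tested genes. The 6 members with TCACGTGA are shown because these letters are part of the CLEAR element, and *Ctsl* because its level fell. Each line reads 5′ to 3′ on the strand of the gene, with the motif in capitals and 11 bases on each side.
*Mcoln1*, chr8:3500462-3500491, plus strand: aggcgccccgcTCACGTGAccgcggcgcat
*Gla*, chrX:134601215-134601244, minus strand: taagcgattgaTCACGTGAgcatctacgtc
*Gla*, second copy, chrX:134601182-134601211, minus strand: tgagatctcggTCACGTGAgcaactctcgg
*Atp6v0d1*, chr8:105566050-105566079, minus strand: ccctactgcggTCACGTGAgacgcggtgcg
*Atp6v1a*, chr16:44139373-44139402, minus strand: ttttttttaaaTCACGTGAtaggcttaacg
*Ctsd*, chr7:142387908-142387937, minus strand: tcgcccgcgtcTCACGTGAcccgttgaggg
*Ctsa*, chr2:164833749-164833778, plus strand: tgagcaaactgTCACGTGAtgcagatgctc
*Ctsl*, CACGTG only, chr13:64370740-64370767, minus strand: gcgttagaagcCACGTGctgatctaaat
Counted from the start, the *Ctsl* match began at -236 and the *Mcoln1* match at -46, while that of *Atp6v0d1* lay across the start. *Ctsa* held a second copy of TCACGTGA just after the start, which overlaps the flank shown and is not printed. *Lamp1* held 4 copies of CACGTG and none of TCACGTGA. A match is a description of letters and not a binding site.

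The lysosome and autophagy genes were expressed well above the typical gene of these cells. Their mean level over the 6 wells had a median of 59.6 TPM, against 13.4 TPM for all tested genes. *Ctsl*, which encodes the cysteine protease cathepsin L, was the most abundant at 782 TPM, followed by the tetraspanin gene *Cd63* (518 TPM), *Ctsd* (510 TPM), which encodes the aspartic protease cathepsin D, and *Lamp1* (500.2 TPM), which encodes a major membrane glycoprotein. *Mitf* was the least abundant at 2.09 TPM. The members also varied less between wells of a group than the typical gene: the median coefficient of variation was 10.4% in the OSKA − 4OHT group and 14.2% in the OSKA + 4OHT group, against 27.5% and 24.2% for all tested genes. Levels were not matched in this comparison, and the members were the more abundant genes. OSKA + 4OHT replicate 3 held the lowest value of 13 members, and OSKA + 4OHT replicate 2 the highest value of 10.

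**Figure D1:**
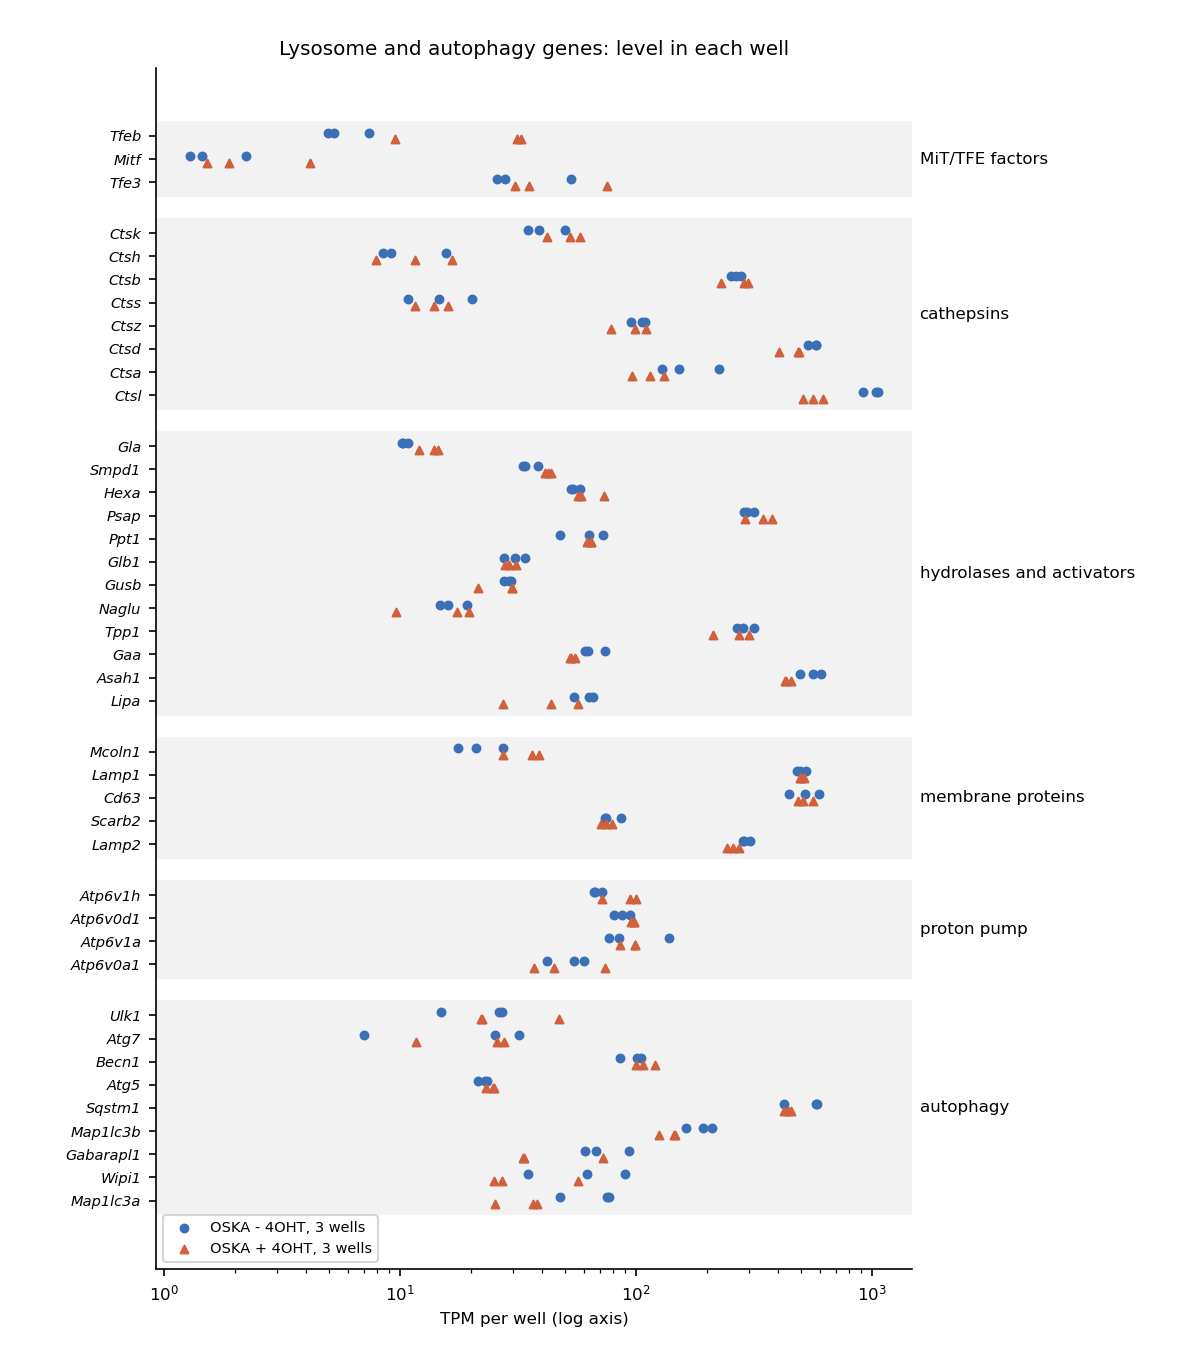
TPM of the 41 members in each of the 6 wells (log axis), by class, with circles for the 3 OSKA − 4OHT wells and triangles for the 3 OSKA + 4OHT wells. Most members overlap between groups, while *Ctsl* is lower in all 3 OSKA + 4OHT wells (506 to 619 TPM) than in all 3 OSKA − 4OHT wells (917 to 1054 TPM).

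Across the 41 members, 1 gene fell, *Ctsl*, and 0 rose by limma-trend, while of all tested genes 5.49% were called, 1.97% as lower and 3.52% as higher. No member also passed the fold threshold of 2, against 4.23% of all tested genes. At an unadjusted p-value under 0.05, 2 members were higher (*Tfeb* and *Mcoln1*) and 5 were lower (*Ctsl*, *Ctsd*, *Asah1*, *Map1lc3a* and *Map1lc3b*), against backgrounds of 14.1% and 7.18%. The wells of the groups did not overlap for 6 members that were higher and 7 that were lower with 4OHT, against 18.1% and 10.0% of all tested genes. The log2 fold changes ran from -0.98 to 1.81 with a median of -0.032, when the median of all tested genes was 0.14; 20 were positive and 21 negative. For 29 of the 41 members, the 95% confidence interval lay within a 2-fold change in either direction, which held for 32.9% of all tested genes. For these members a change of more than 2-fold in either direction lay outside the interval, whereas for the other 12 it did not. Levels were not matched in the comparison with all tested genes, and the members were the more abundant genes.

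**Figure D2:**
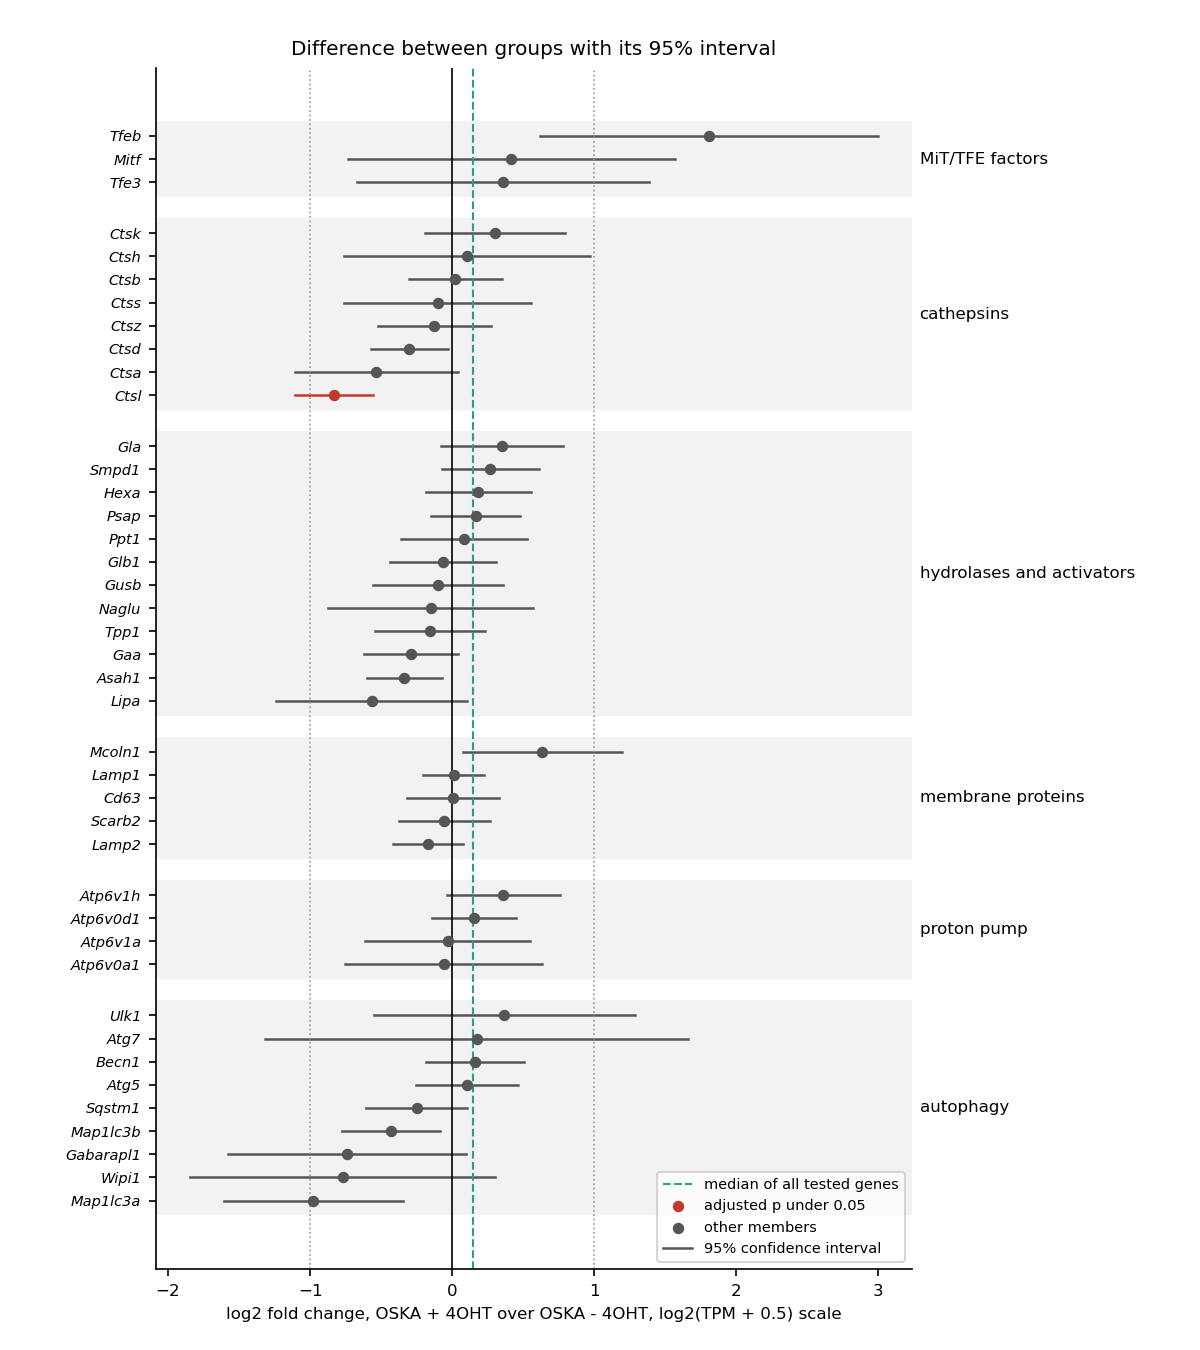
log2 fold change of each member, OSKA + 4OHT over OSKA − 4OHT on the log2(TPM + 0.5) scale, as a point with its 95% confidence interval. The dashed line is the median of all tested genes (0.14), the dotted lines mark 2-fold changes, and *Ctsl*, in red, is the member with an adjusted p-value under 0.05.

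The MiT/TFE factors were the class with the highest median difference, 0.42 on the log2 scale over 3 genes, though none passed the test. *Tfeb* (chr17:47737030-47792419), the best known inducer of lysosome genes, was at 7.36, 4.93 and 5.26 TPM in the OSKA − 4OHT wells, replicates 1 to 3 in order, and at 31.3, 9.54 and 32.5 TPM in the OSKA + 4OHT wells. All OSKA + 4OHT wells lay above all OSKA − 4OHT wells, but replicate 2 stood close to them and far from the other two. The group averages of 3 wells were 5.85 ± 1.32 and 24.4 ± 12.9 TPM (± SD), 4.17 times higher with 4OHT. On the log2 scale the difference was 1.81 (95% confidence interval 0.62 to 2.99), the largest of the 41 members, with an adjusted p of 0.0952 by limma-trend. Without OSKA + 4OHT replicate 2 it was 2.37 and passed (adjusted p = 0.0410), and over the 17 alternative settings the adjusted p ran from 0.0410 to 0.291. The *Tfeb* transcript shared no stretch of 50 or more bases at 95% identity with another gene.

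*Tfe3*, on the X chromosome and the most abundant of these factors, was at 27.7, 25.8 and 53.1 TPM in the OSKA − 4OHT wells and at 35.1, 75.0 and 30.7 TPM in the OSKA + 4OHT wells. The groups overlapped, with 1 high well in each, and the log2 fold change was 0.36 (interval -0.67 to 1.39). *Mitf*, better known as the master regulator of pigment cells, was at 1.29, 1.44 and 2.22 TPM without 4OHT and at 1.52, 1.89 and 4.16 TPM with it. These wells overlapped too, near the lowest level tested, and the log2 fold change was 0.42 (interval -0.74 to 1.57). *Tfec*, the remaining gene of the family, was at most 1.43 TPM in any well and was not tested.

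**Figure D3:**
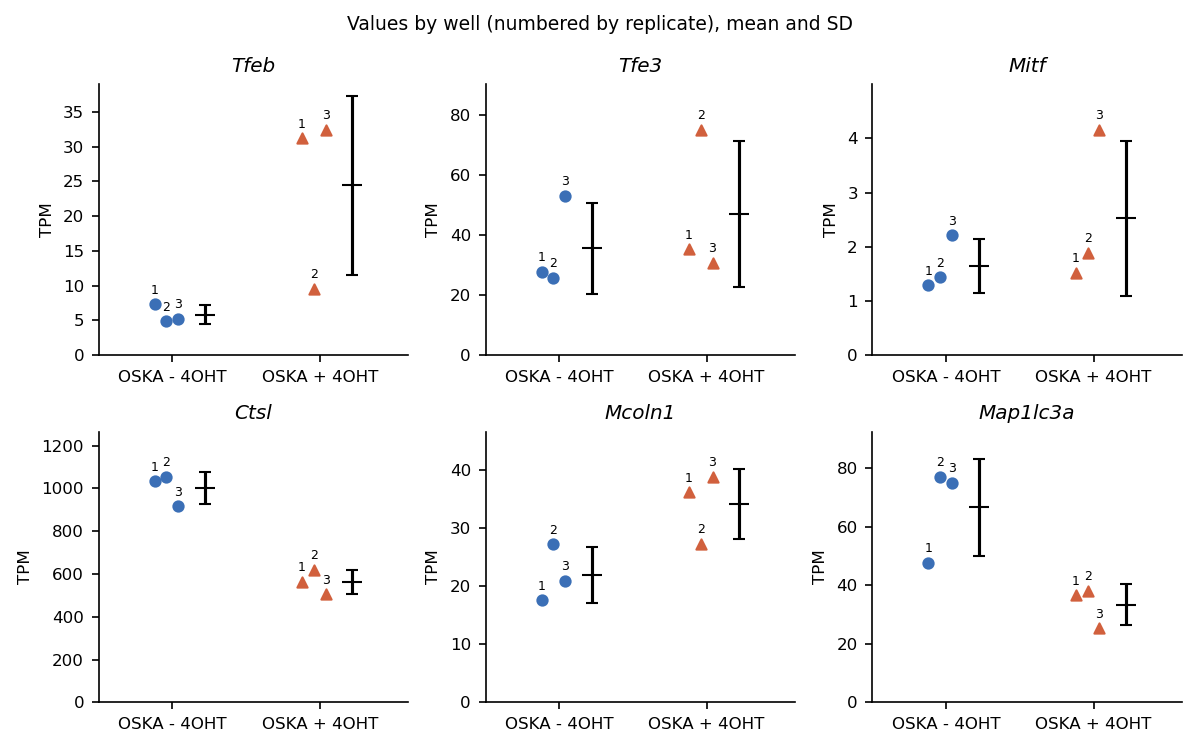
TPM in each well, numbered by replicate, for 3 MiT/TFE factors and for *Ctsl*, *Mcoln1* and *Map1lc3a*, with the mean and SD of 3 wells beside each group on axes that start at 0. *Tfeb* shows the low OSKA + 4OHT replicate 2 (9.54 TPM) apart from replicates 1 and 3 (31.3 and 32.5 TPM).

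The cathepsins held the only member that fell. *Ctsl* (chr13:64359337-64370890) was at 1033, 1054 and 917 TPM in the OSKA − 4OHT wells, and at 564, 619 and 506 TPM in the OSKA + 4OHT wells. Every OSKA + 4OHT well was lower than every OSKA − 4OHT well, and the gap between groups exceeded the spread within them. Over 3 wells each, the average fell from 1001 ± 73.7 to 563 ± 56.4 TPM (± SD), to 0.562 of the level without 4OHT. On the log2 scale the difference was -0.83 (interval -1.11 to -0.56, SE 0.114, adjusted p = 0.0145 by limma-trend). The call was lost without OSKA − 4OHT replicate 1 (adjusted p = 0.0611) or 2 (0.0699) and without OSKA + 4OHT replicate 1 (0.0768) or 2 (0.0507), while the log2 fold change over the 6 fits with 1 well left out was between -0.90 and -0.76. Over the 17 alternatives the adjusted p ran from 0.0066 to 0.0768. The longest *Ctsl* transcript overlaps the antisense gene *Gm47123* over 28.6% of its length; that gene was listed at 0 in all 6 wells.

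The other 7 cathepsins did not pass the test. *Ctsd* was at 563 ± 24.5 TPM without 4OHT and 458 ± 47.3 TPM with it, and its groups did not overlap (log2 fold change -0.30, adjusted p = 0.194 by limma-trend). It shares 38.0% of its longest transcript with *Gm49369*, whose values were 53.3, 6.18 and 0 TPM without 4OHT and 3.77, 3.23 and 0 TPM with it. *Ctsb*, which encodes another abundant cysteine protease, was at 265 ± 12.6 and 270 ± 37.2 TPM, a log2 fold change of 0.02 with an interval of -0.31 to 0.35. *Ctsa*, which encodes a carboxypeptidase that also protects β-galactosidase, had a log2 fold change of -0.54 (interval -1.11 to 0.038), and OSKA − 4OHT replicate 1 was high at 224 TPM. *Ctsk*, which encodes a collagen-degrading protease, was at 41.1 ± 7.80 and 50.5 ± 7.97 TPM. *Ctsh*, *Ctss* and *Ctsz* had log2 fold changes between -0.13 and 0.10, each with overlapping groups. The median over the 8 cathepsins was -0.11. These genes, and those below that the rule for named genes did not select, were picked for description after their values were seen.

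Summed over the 8 cathepsins, the level was 2253, 2219 and 2031 TPM in the OSKA − 4OHT wells and 1622, 1708 and 1402 TPM in the OSKA + 4OHT wells. The groups did not overlap, and the ratio of the means was 0.727. Without *Ctsl* the sums of the remaining 7 were 1221, 1165 and 1114 TPM against 1058, 1089 and 896 TPM, a ratio of 0.869. The wells still did not overlap, with a smaller gap.

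Cathepsins are also abundant in macrophages, so markers of that cell type stand beside them. Of the 11 macrophage markers 10 were tested, of which 1 fell and 0 rose, and their summed level was 139 to 167 TPM in the OSKA − 4OHT wells and 74.7 to 101 TPM in the OSKA + 4OHT wells. The gene that fell was *Lyz2*, which encodes lysozyme, from 101, 90.1 and 94.3 TPM to 48.2, 46.5 and 60.7 TPM (adjusted p = 0.0299 by limma-trend). Without *Lyz2*, the sums were 49.0 to 73.1 and 28.2 to 44.5 TPM. The defining markers *Csf1r* and *Ptprc* were at most 4.29 and 1.67 TPM in any well, *Adgre1* reached 18.7 TPM in OSKA − 4OHT replicate 3, and *Aif1* was listed at 0 in 3 wells. The single markers took both directions, 3 with a positive and 7 with a negative log2 fold change. *Fcgr1* was higher in every OSKA + 4OHT well, from 0.390, 0.179 and 0.630 TPM to 0.641, 3.44 and 4.12 TPM. *Csf1r* was lower in every OSKA + 4OHT well, from 3.06, 2.88 and 4.29 TPM to 2.22, 0.935 and 2.71 TPM. *Tyrobp* and *Fcer1g* had log2 fold changes of -0.96 and -0.80 with overlapping groups. *Itgam* was at 4.51 to 6.21 TPM without 4OHT and 4.66 to 6.11 TPM with it. All 4 osteoclast markers together did not exceed 1.31 TPM in any well. The part of other cell types in the fall of *Ctsl* was not tested.

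The 12 hydrolases and activators showed small differences in both directions. None passed the test, the median log2 fold change was -0.083, and 11 of the 12 intervals lay within 2-fold. *Lipa*, which encodes lysosomal acid lipase and had the largest difference of the class, was at 54.3, 62.8 and 65.6 TPM in the OSKA − 4OHT wells and at 56.9, 27.3 and 43.7 TPM in the OSKA + 4OHT wells. The groups overlapped through OSKA + 4OHT replicate 1, and the log2 fold change was -0.57 (interval -1.24 to 0.11, adjusted p = 0.310 by limma-trend). *Asah1*, which encodes acid ceramidase, was the most abundant of the class and was lower without overlap, at 554 ± 56.3 and 437 ± 13.6 TPM (log2 fold change -0.34, adjusted p = 0.145). *Gaa*, which encodes the glycogen-degrading acid α-glucosidase, did not overlap either, at 65.8 ± 6.85 and 53.5 ± 1.36 TPM.

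*Gla*, which encodes α-galactosidase A and, like *Ctsa*, has 2 copies of TCACGTGA in its window, was at 10.4 ± 0.337 TPM without 4OHT and 13.5 ± 1.25 TPM with it. *Smpd1*, which encodes acid sphingomyelinase, was at 35.0 ± 2.80 and 42.2 ± 1.18 TPM. Both were higher in every OSKA + 4OHT well, with adjusted p-values of 0.326 and 0.340 by limma-trend. *Psap*, the precursor of the saposins that help hydrolases reach sphingolipids, was at 298 ± 14.9 and 336 ± 44.1 TPM. The proteases and glycosidases *Tpp1*, *Naglu*, *Gusb*, *Glb1* and *Hexa* and the thioesterase *Ppt1* had log2 fold changes between -0.15 and 0.19, and their groups overlapped.

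The membrane proteins included the closest pairs of means. *Lamp1* was at 498.7 ± 21.9 TPM without 4OHT and 501.8 ± 9.75 TPM with it, a log2 fold change of 0.0097 with an interval of -0.21 to 0.23. *Cd63* was at 519 ± 73.6 and 518 ± 36.9 TPM, with an interval of -0.32 to 0.33. For *Scarb2*, the receptor that carries β-glucocerebrosidase to lysosomes, and *Lamp2*, which also serves chaperone-mediated autophagy, the log2 fold changes were -0.057 and -0.17. *Lamp2* was lower in every OSKA + 4OHT well, by a small margin, at 290 ± 10.8 and 258 ± 14.7 TPM.

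*Mcoln1* (chr8:3500457-3515232), which encodes the lysosomal calcium channel TRPML1, had the largest difference of the membrane class. It was at 17.6, 27.1 and 20.9 TPM in the OSKA − 4OHT wells and at 36.1, 27.3 and 38.8 TPM in the OSKA + 4OHT wells. The groups just missed each other, since OSKA + 4OHT replicate 2 was level with OSKA − 4OHT replicate 2. The log2 fold change was 0.63 (interval 0.075 to 1.19, adjusted p = 0.185 by limma-trend), and 13.8% of its longest transcript is shared with other genes. OSKA + 4OHT replicate 2 was thus the lowest OSKA + 4OHT well for *Mcoln1* as it was for *Tfeb*. It was the highest well of that group for *Tfe3*. Among the other members with TCACGTGA, it was the highest for *Ctsa*, *Ctsd* and *Atp6v0d1* and the middle one for *Gla* and *Atp6v1a*. This order of wells was not tested.

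None of the 4 proton pump members passed the test, and all 4 intervals lay within 2-fold, around a median of 0.061. *Atp6v1h*, a regulatory subunit of the cytoplasmic sector, was at 66.8, 66.0 and 71.5 TPM in the OSKA − 4OHT wells and at 93.8, 99.7 and 71.7 TPM in the OSKA + 4OHT wells. The groups did not overlap, though OSKA + 4OHT replicate 3 was level with the highest well without 4OHT, and the log2 fold change was 0.36 (interval -0.035 to 0.76, adjusted p = 0.274 by limma-trend). *Atp6v0d1*, a subunit of the membrane sector, was at 87.2 ± 6.66 and 97.0 ± 1.82 TPM, also without overlap. *Atp6v1a*, the catalytic subunit, and *Atp6v0a1*, which helps form the proton path, had log2 fold changes of -0.032 and -0.059 with overlapping groups.

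The autophagy class had the lowest median, -0.25 over 9 genes, again with 0 genes past the test and 2 lower at an unadjusted p-value under 0.05, against 7.18% lower among all tested genes. *Map1lc3a* (chr2:155276297-155278073) encodes LC3A, one of the ubiquitin-like ATG8 proteins that are attached to autophagosome membranes. It was at 47.6, 77.0 and 75.1 TPM in the OSKA − 4OHT wells and at 36.7, 38.2 and 25.2 TPM in the OSKA + 4OHT wells. All wells with 4OHT lay below all wells without it, and the closest were the replicates 1 and 2 of the groups, at 47.6 and 38.2 TPM. The means were 66.6 ± 16.4 and 33.4 ± 7.07 TPM, and the log2 fold change was -0.98 (interval -1.61 to -0.35, adjusted p = 0.0909 by limma-trend). Its adjusted p ran from 0.0546 to 0.233 over the alternatives and was never under 0.05.

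Its paralogue *Map1lc3b*, which encodes the widely used marker LC3B, was at 187 ± 23.6 and 139 ± 11.8 TPM without overlap (log2 fold change -0.43, adjusted p = 0.152 by limma-trend). Part of its transcript, 13.8%, is shared with other genes. *Gabarapl1*, another ATG8 gene, was at 74.0 ± 17.1 and 46.5 ± 22.7 TPM, with overlap through OSKA + 4OHT replicate 1 at 72.7 TPM. *Gabarap* and *Gabarapl2*, the other 2 ATG8 genes and no members, had log2 fold changes of -0.081 and 0.013. *Wipi1*, which reads the lipid signal on forming autophagosomes, was at 62.0 ± 27.3 and 36.1 ± 17.6 TPM with wide scatter in both groups (log2 fold change -0.77, interval -1.84 to 0.30).

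*Sqstm1*, which encodes the cargo receptor p62, was at 528 ± 90.0 and 440 ± 14.6 TPM and overlapped. The kinase gene *Ulk1* and *Becn1*, which start autophagosome formation, had log2 fold changes of 0.37 (interval -0.55 to 1.29) and 0.16 (interval -0.18 to 0.51). *Atg5*, part of the conjugation machinery, varied little, at 22.5 ± 0.949 and 24.2 ± 0.993 TPM. *Atg7*, the enzyme that activates ATG8 proteins, scattered most, at 31.8, 7.04 and 25.3 TPM without 4OHT and 25.8, 11.7 and 27.6 TPM with it. Its interval of -1.31 to 1.66 allows a change of more than 2-fold either way.

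**Figure D4:**
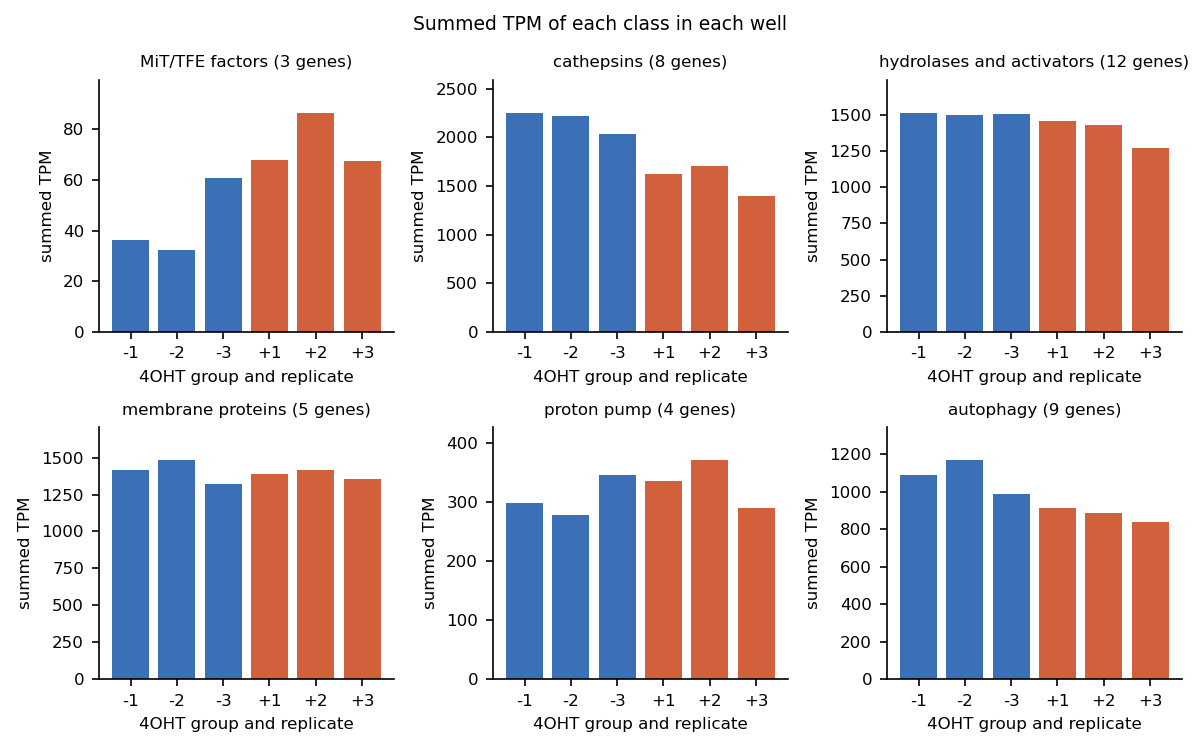
Summed TPM of the members of each class in each well (blue, OSKA − 4OHT replicates 1 to 3; red, OSKA + 4OHT replicates 1 to 3), on axes that start at 0. The cathepsin sums are 2031 to 2253 TPM without 4OHT and 1402 to 1708 TPM with it, while the membrane protein sums overlap at 1323 to 1483 and 1355 to 1419 TPM.

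Summed over all 41 members, the genes took 6513 ± 232 TPM in the OSKA − 4OHT wells and 5634 ± 363 TPM in the OSKA + 4OHT wells, or 0.651% and 0.563% of all transcripts. The groups did not overlap, at 6248 to 6682 and 5220 to 5899 TPM. Without *Ctsl* the sums of the other 40 were 5332 to 5628 and 4714 to 5280 TPM, and the ratio of the means went from 0.865 to 0.920. The autophagy sum was 1081 ± 91.9 and 879 ± 37.7 TPM without overlap, and the hydrolase sum 1506 ± 6.79 and 1386 ± 103 TPM. The proton pump sums overlapped, at 307 ± 34.6 and 332 ± 40.9 TPM. The 125 genes of a wider list of the pathway, described below, had the opposite order, at 6968 ± 181 TPM without 4OHT and 8232 ± 543 TPM with it, without overlap. This rested on *Nbr1*, which did not pass the test, and without it the sums overlapped, at 6410 to 6821 and 6465 to 7289 TPM. The 34 autophagy genes of that list summed to 1720 ± 172 and 2691 ± 198 TPM, and without *Nbr1* to 1416 ± 113 and 1446 ± 70.2 TPM, again with overlap. Such sums are led by the few most abundant genes of each class and were not tested.

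The differences of members with the E-box letters, and of those without them, took both signs. The 6 members with TCACGTGA had 3 positive and 3 negative log2 fold changes, from -0.54 (*Ctsa*) to 0.63 (*Mcoln1*), with a median of 0.061. The 13 with CACGTG had a median of -0.032, with 6 positive and 7 negative. The 22 with a window and no CACGTG had a median of -0.058, with 10 positive and 12 negative. These are descriptions, with no test of the difference between the groups of genes.

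A wider list of 125 genes of the same pathway, of which 116 were tested, sets the members beside the rest of it. In it 2 genes rose and 1 fell by limma-trend, against 5.49% called among all tested genes. At an unadjusted p-value under 0.05, 17 were higher and 3 lower, against 14.1% and 7.18% of all tested genes, so the higher count is near the background. The median log2 fold change was 0.10. By class, the medians were 0.076 for 4 further lysosomal proteases (3 cathepsins and legumain), 0.19 for 28 hydrolases and their activators or transport enzymes, 0.11 for 15 membrane proteins, 0.14 for 16 proton pump subunits and -0.059 for 34 autophagy genes. The 19 genes of nutrient control of the MiT/TFE factors (mTORC1, Rag GTPases, Ragulator and folliculin) had a median of 0.22 and 0 calls. At an unadjusted p-value under 0.05, 2 of the 19 were higher and 0 lower, no more than the 14.1% and 7.18% of all tested genes.

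*Ctsc* (chr7:88278085-88310888), which encodes cathepsin C, the dipeptidase that activates serine proteases of immune cells, was the gene of the wider list that fell. It was at 503, 447 and 321 TPM in the OSKA − 4OHT wells and at 141, 131 and 132 TPM in the OSKA + 4OHT wells. The groups lay far apart, and the wells with 4OHT were nearly equal. The log2 fold change was -1.62 (interval -2.06 to -1.19, adjusted p = 0.00822 by limma-trend). The call was lost without OSKA − 4OHT replicate 2 (adjusted p = 0.0515) and without OSKA + 4OHT replicate 1 (0.0586) or 2 (0.0580). The macrophage marker sums given beside *Ctsl*, of which *Lyz2* was the largest part, were lower with 4OHT. Of the single markers tested, 7 had a negative log2 fold change, *Lyz2* and *Csf1r* without overlap. The other 3 had a positive one, *Fcgr1* without overlap. The part of such cells in the fall of *Ctsc* was not tested.

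*Bnip3*, which encodes a mitophagy receptor of the outer mitochondrial membrane that is induced in hypoxia, rose from 36.8, 37.7 and 42.9 TPM to 152, 204 and 146 TPM. No wells overlapped, and the log2 fold change was 2.07 (interval 1.65 to 2.49, adjusted p = 0.00376 by limma-trend). The adjusted p was under 0.05 in 16 of 17 alternatives, the 6 that leave out 1 well among them, and at most 0.0555. A similar sequence in reverse orientation, at up to 98.3% identity over 94.2% of its longest transcript, lies in the gene *AC160336.1*, which was between 6.40 and 7.56 TPM without 4OHT and between 4.75 and 5.37 TPM with it. *Bnip3l*, a closely related mitophagy receptor, had a log2 fold change of -0.032.

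*Dnase2a*, which encodes the acid DNase of lysosomes, rose from 7.58, 6.21 and 8.08 TPM to 17.5, 30.2 and 18.9 TPM. The groups did not overlap, and OSKA + 4OHT replicate 2 was the highest well. The log2 fold change was 1.51 (interval 0.87 to 2.15, adjusted p = 0.0299 by limma-trend), but the call was lost whichever well was left out, with adjusted p-values of 0.0804 to 0.106. It overlaps the antisense gene *Mast1*, which was at most 0.267 TPM in any well.

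Genes of the wider list that did not pass, chosen after their values were seen, included *Nbr1*, a cargo receptor related to p62, with the largest log2 fold change (2.44, adjusted p = 0.111 by limma-trend). It was at 493, 352 and 68.1 TPM in the OSKA − 4OHT wells, a wide scatter, and at 1142, 1417 and 1174 TPM in the OSKA + 4OHT wells. Without OSKA − 4OHT replicate 3, the low well, its log2 fold change was 1.57 and it passed (adjusted p = 0.0439), and over the 17 alternatives the adjusted p ran from 0.0439 to 0.312. Of the proton pump, 4 of 16 further subunits were higher at an unadjusted p-value under 0.05 and 0 were lower, against 14.1% and 7.18% of all tested genes. One was *Atp6v0c*, the proteolipid of the membrane sector, at 362 ± 27.9 and 492 ± 34.0 TPM without overlap (log2 fold change 0.44, adjusted p = 0.0728). *Flcn* (folliculin) and *Rragd*, which control the nutrient signal to TFEB, were higher in every OSKA + 4OHT well, with log2 fold changes of 0.81 and 0.92 and adjusted p-values of 0.134 and 0.130.

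**Figure D5:**
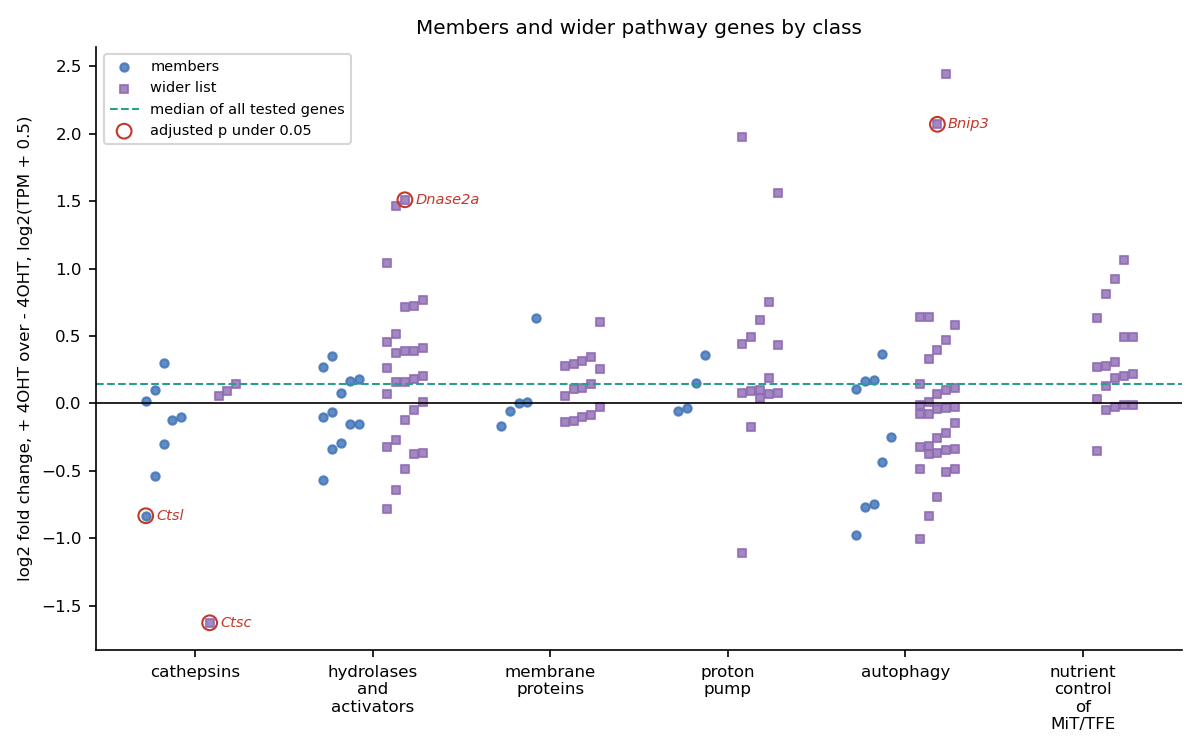
log2 fold change (log2(TPM + 0.5) scale) of the members (circles) and of the wider list (squares) in 6 classes, without the MiT/TFE factors, with genes that have an adjusted p-value under 0.05 ringed and named. *Ctsl* and *Ctsc* are ringed below 0, and *Bnip3* and *Dnase2a* above it, and the dashed line is the median of all tested genes (0.14).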

How the data were processed

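The authors trimmed 50-base single-end reads of stranded polyA libraries with Trim Galore and quantified them with Salmon. They deposited TPM per gene and well; whether Salmon used the strand, its version and the transcriptome release are not given in the sources used here. The same table holds the output of the authors' own comparison, deposited as log2 values (fold change and average level), a score (the test statistic) and a p-value, and these columns were not used.

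Symbols and positions came from GENCODE M21 (GRCm38), matched by Ensembl identifier for 54097 of 54331 genes. The values were analysed with limma-trend (limma 3.58.1, R 4.3.3) on log2(TPM + 0.5) over genes averaging 1 TPM or more in the 6 wells, with no block and Benjamini-Hochberg adjustment over 15382 genes. The study's own test was a count model, which TPM do not allow. Members, lists and tests were chosen with earlier results of these data known. Values in every well were given for members with an adjusted p-value under 0.05, for the MiT/TFE factors, for the member with the largest difference in each class with no such member, and for up to 3 genes with the largest rise or fall past the test per class of the wider list. Transcripts that share at least 50 bases at 95% identity were found with BLAST 2.17.0, and motifs and figures were made with Python 3.11.15. TPM keep no depth, so no counting error can be given, and with 3 wells against 3 an exact permutation test of 1 gene cannot go below 0.1. Alternatives were pseudocounts of 0.1, 1 and 2, no filter, an average of 5 TPM or more, other scalings (trimmed mean of log ratios, quantile normalization, and mitochondrial genes left out of the sum, the last added after seeing the data), other variance models, the replicate number as a block, and each well left out.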

Additional observations from a re-analysis of the deposited data

How the results depend on the processing

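The count of 1 member past the threshold became 0 with no variance trend and ran from 0 to 1 when 1 well was left out. Without OSKA + 4OHT replicate 2, the 1 member was *Tfeb* and not *Ctsl*. *Ctsl* had an adjusted p under 0.05 by limma-trend in 11 of 17 alternatives. The count of 3 genes of the wider list became 5 when averages under 5 TPM were filtered out and ran from 1 to 4 when 1 well was left out. Whether the replicate numbers mark pairs is not stated. Deviations from the group means had correlations of 0.0235, 0.0341 and 0.0837 between same-numbered wells of the groups. Between wells of different number they ran from -0.062 to 0.0327. With 3 wells per group, these small values cannot decide whether wells were paired. With the replicate number as a block, the count was 0 for members and 0 for the wider list (*Bnip3* at an adjusted p of 0.0555 by limma-trend), and 31 genes were higher and 16 lower among all genes, against 542 and 303 without it. Of the class medians, that of the membrane proteins was -0.086 with the trimmed mean of log ratios, and that of the proton pump was -0.030 with it and -0.032 with quantile normalization. When 1 well was left out, the medians ran from -0.14 to 0.065 for hydrolases and activators, from -0.098 to 0.016 for membrane proteins, from 0.039 to 0.22 for the proton pump, from -0.41 to -0.18 for autophagy, from -0.23 to -0.083 for cathepsins and from 0.30 to 0.69 for MiT/TFE factors. Over all 17 alternatives the medians of cathepsins and autophagy were negative and that of the MiT/TFE factors positive (1.08 when averages under 5 TPM, *Mitf* among them, were filtered out). The cause of these shifts was not tested. Of 764 pairs of an alternative with a member or with *Ctsc*, *Bnip3*, *Dnase2a* or *Nbr1*, 744 kept their side of the threshold, 18 went from called to not called and 2 the other way, and 25 of the 41 members kept their sign throughout. Over all genes, higher calls made up 64.1%, but 53.2% with the trimmed mean of log ratios (484 higher, 425 lower) and 49.7% with quantile normalization (428 and 434), which moved the median of all genes from 0.14 to -0.0047. Leaving out 1 well gave 137 to 357 higher and 68 to 148 lower genes. Without a filter, 415 were higher and 219 lower of 24191 tested. Depth is not kept in TPM, so low genes such as *Mitf* cannot be given a counting error.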
